A study of Arabidopsis thaliana with 70 samples.

Results

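Messenger RNA was compared between 3 h and 1 h of flg22 in Arabidopsis thaliana seedlings of rdd, with 3 libraries at each time. These 6 libraries are all rdd seedling RNA libraries labelled 1 h or 3 h, out of 38 RNA libraries and 70 samples in the series. The genotype rdd is a ros1 dml2 dml3 triple mutant, which lacks DNA demethylases that remove methylcytosine, and it is present in every library of this comparison. Seedlings were 10 days old, grown on plates, and received 100 nM flg22, a peptide of bacterial flagellin. The rdd seedlings labelled 0 h (n = 3) and wild-type (WT) seedlings at 1 h and 3 h (n = 3 each) are used below for reference. No seedlings kept without flg22 until 1 h or 3 h are among the RNA libraries, so time under flg22 and time of day cannot be told apart. Whole seedlings were sampled, so fewer cells of a type and less RNA per cell cannot be told apart either.

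Plants sense flg22 through the receptor kinase FLS2 and its co-receptor BAK1. Binding activates cytoplasmic kinases, a calcium influx, calcium-dependent kinases and MAP kinase cascades, which switch on defence genes within minutes. Many of these early transcripts are transient, and later ones serve cell wall defence, secretion and the synthesis of antimicrobial compounds. Receptors and secreted defence proteins are folded in the endoplasmic reticulum (ER) by chaperones such as BIP, calnexin, calreticulin and protein disulfide isomerases. A comparison of 3 h with 1 h therefore asks which transcripts were lower and which were higher at the later time. By itself it cannot place a peak or show that a transcript was still rising.

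Levels are in FPKM, sequenced fragments scaled by transcript length and library total, as read from the deposited values. Differences are log2 fold changes of FPKM + 1, 3 h over 1 h, given ± SE, with adjusted p-values from limma (Benjamini-Hochberg), and a gene was called at an adjusted p under 0.05. The fit held all 18 seedling libraries, so SE and p rest on a spread pooled over them and not on the 6 compared libraries alone. Of 18886 genes tested, 785 (4.16%) were higher and 1371 (7.26%) were lower at 3 h than at 1 h. The counts were 373 and 745 with only the 6 compared libraries in the fit. With a change of at least 2-fold, 212 (1.12%) were higher and 646 (3.42%) lower. The libraries of the 2 times did not overlap for 1892 genes higher at 3 h (10%) and 3321 lower at 3 h (17.6%). The median change of all tested genes was -0.121, which is the reference for the list medians below. The library labelled replicate 2 at 3 h stood apart from the others. It listed 1333 of the tested genes at 0, and the other 5 libraries listed 149 to 206. Organelle genes held 2.855% of its FPKM, while their share was 0.223 to 0.809% among the remaining seedling libraries. The median of its genes lay -0.316 below the 1 h mean on the log2 scale. Without this library 850 genes were higher and 946 lower. The share of higher genes among the calls went from 36.4% to 47.3%, and the median change was -0.015. The share was 43.3% with median-ratio scaling and 26.4% without replicate 3 at 3 h. Of the 1371 lower genes, 90 were listed at 0 in replicate 2 and above 0 in both other 3 h libraries. Leaving out any other library also moved the counts: 521 genes were higher without replicate 3 at 1 h and 824 were lower without replicate 2 at 1 h. The green tissue markers were present at summed levels of 47420 to 57194 FPKM in the 6 libraries, and the root markers at 1021 to 1875 FPKM.

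Receptor and early signalling genes were lower or did not pass the test. Of 37 tested members of 38, 24 were lower at 3 h, none was higher, and the median change was -0.93. With only the 6 compared libraries in the fit, 17 were lower. The receptor of flg22 itself, FLS2 (AT5G46330), stood at 64.8, 74.0 and 63.1 FPKM at 1 h and 17.7, 21.4 and 21.5 at 3 h. All 3 libraries at 3 h lay below all 3 at 1 h and above the 0 h mean of 13.6 FPKM, with a log2 fold change of -1.69 ± 0.14 (adjusted p = 5.1e-07). EFR (AT5G20480), the receptor of the bacterial peptide elf18, went the same way, from 6.36, 8.39 and 7.25 FPKM at 1 h to 2.11, 1.65 and 2.88 at 3 h (-1.39 ± 0.19, adjusted p = 0.00012). The chitin receptor kinase CERK1 (AT3G21630) stood at 75.1, 91.0 and 69.5 FPKM at 1 h and 40.4, 36.1 and 45.9 at 3 h (-0.93 ± 0.15, adjusted p = 0.00042). Its partner LYK5 (AT2G33580), which binds chitin, stood at 13.4, 17.0 and 12.1 FPKM at 1 h and 3.46, 3.34 and 4.55 at 3 h (-1.66 ± 0.19, adjusted p = 1.7e-05). PEPR1 (AT1G73080), which senses the plant's own Pep peptides, fell from 62.6 ± 5.37 FPKM (SD, n = 3) at 1 h to 22.0 ± 4.52 at 3 h (-1.48 ± 0.16, adjusted p = 5.2e-06). The co-receptor BAK1 (AT4G33430) fell from 153, 154 and 158 FPKM at 1 h to 78.8, 89.8 and 87.5 at 3 h (-0.86 ± 0.11, adjusted p = 3.7e-05).

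BIR1 (AT5G48380), a receptor kinase that restrains cell death through BAK1, was among the most abundant of these genes at 1 h. Its levels were 360.3, 339 and 382 FPKM at 1 h and 96.9, 102 and 114 at 3 h (-1.78 ± 0.13, adjusted p = 6.4e-08), and the groups lay far apart. Among the calcium-dependent kinases, CPK28 (AT5G66210), which promotes turnover of the kinase BIK1, fell from 181, 171 and 184 FPKM at 1 h to 31.9, 37.8 and 38.0 at 3 h (-2.29 ± 0.11, adjusted p = 2.9e-09). BIK1 (AT2G39660), the kinase that links FLS2 to the oxidative burst, stood at 72.6, 75.3 and 74.7 FPKM at 1 h and 46.5, 56.0 and 49.8 at 3 h (-0.54 ± 0.10, adjusted p = 0.0022). CPK5 (AT4G35310), a positive regulator of the same burst, changed by -0.66 ± 0.10, adjusted p = 0.00019. In the MAP kinase cascade, MKK4 (AT1G51660) stood at 50.4, 52.7 and 57.4 FPKM at 1 h and 18.6, 17.0 and 20.7 at 3 h (-1.47 ± 0.16, adjusted p = 9.7e-06). MPK11 (AT1G01560), one of the MAP kinases that flg22 activates, was listed at 0 in replicates 1 and 2 at 3 h and at 0.75 FPKM in replicate 3, against 3.83, 5.99 and 8.24 FPKM at 1 h (-2.49 ± 0.26, adjusted p = 5.2e-06). The kinases downstream of MKK4 did not pass the test: MPK3 (AT3G45640) changed by -0.16 ± 0.12, adjusted p = 0.44 and MPK6 (AT2G43790) by 0.19 ± 0.09, adjusted p = 0.22. FER (AT3G51550), a receptor of RALF peptides, stood at 161, 151 and 169 FPKM at 1 h and 156, 152 and 140.2 at 3 h, with the groups overlapping (-0.10 ± 0.10, adjusted p = 0.57). RBOHD (AT5G47910), the NADPH oxidase of the burst, stood at 19.2, 20.9 and 16.0 FPKM at 1 h and 6.14, 8.16 and 12.7 at 3 h. Its 3 h libraries were all below the 1 h libraries, yet it did not pass the test (-1.03 ± 0.36, adjusted p = 0.084).

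**Figure D1:**
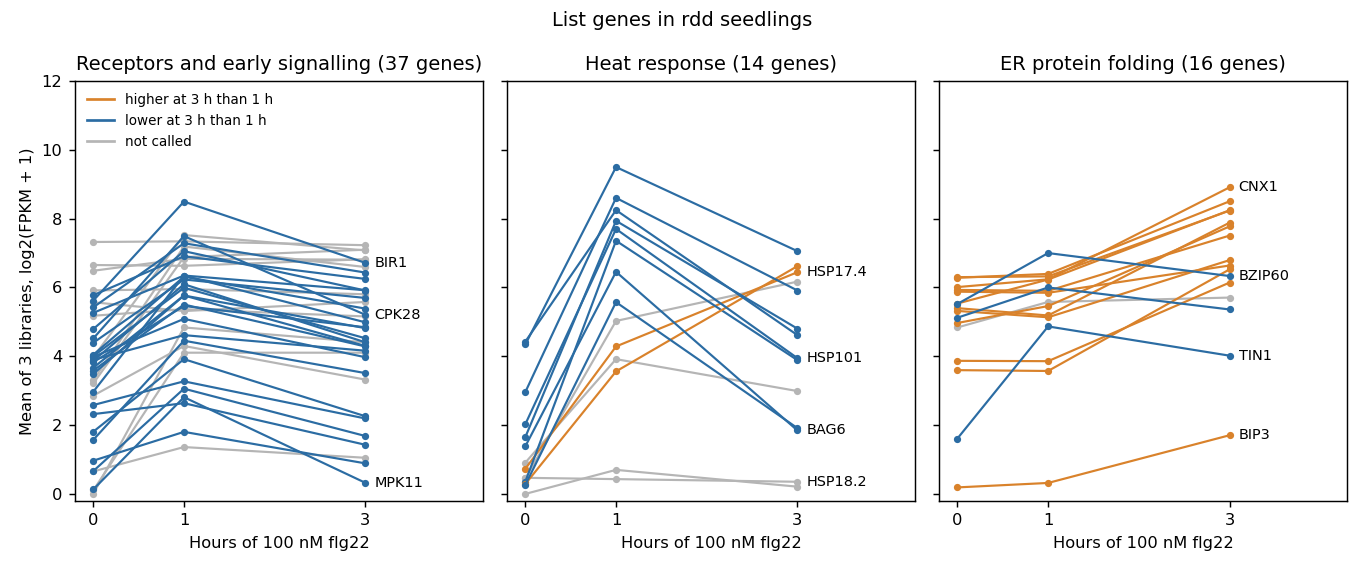
Mean log2(FPKM + 1) of each tested list gene in rdd seedlings against hours of flg22, for receptors and early signalling (37 genes), heat response (14) and ER protein folding (16), each point the mean of 3 libraries. Blue lines are genes called lower at 3 h than at 1 h (24, 8 and 3), orange lines those called higher (0, 2 and 12) and grey lines the rest; the highest point is at 1 h for 33 of 37 receptor and 10 of 14 heat response genes, and at 3 h for 13 of 16 ER folding genes.

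Cysteine-rich receptor-like kinases, a family of surface kinases many of which respond to pathogens, included calls in both directions. The symbol CRK marks 40 genes, of which 2 are named CDPK-related kinases in the annotation and belong to another family. Of 28 tested members among the remaining 38, 12 were lower, 4 were higher and the median change was -0.58. The higher count was 2 without replicate 3 at 1 h. CRK10 (AT4G23180) fell from 86.7, 88.4 and 92.7 FPKM at 1 h to 12.9, 9.50 and 17.6 at 3 h (-2.70 ± 0.18, adjusted p = 3.4e-08). CRK11 (AT4G23190) and CRK14 (AT4G23220) changed by -1.80 ± 0.15, adjusted p = 3.7e-07 and -2.27 ± 0.19, adjusted p = 5.8e-07. In the other direction CRK21 (AT4G23290) rose from 3.35, 3.04 and 3.70 FPKM at 1 h to 19.9, 15.7 and 19.8 at 3 h (2.15 ± 0.20, adjusted p = 1.2e-06). CRK13 (AT4G23210) rose from 7.79, 6.67 and 8.77 FPKM at 1 h to 17.9, 16.9 and 23.9 at 3 h (1.23 ± 0.25, adjusted p = 0.0037). For CRK21 the 0 h mean, 5.19 FPKM, was close to the 1 h values, while CRK13 was at 0.92 FPKM at 0 h. Several of these genes lie in 1 tandem cluster and have similar sequences, so reads may have been split between them.

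The transcription factor lists held fewer calls. Of 52 tested WRKY factors of 67, 8 were lower and 1 was higher, with a median change of -0.27; the lower count ranged from 6 to 13 when 1 library was left out, 13 of them without replicate 3 at 3 h. WRKY30 (AT5G24110) fell from 168, 205 and 185 FPKM at 1 h to 8.64, 9.61 and 26.0 at 3 h (-3.73 ± 0.31, adjusted p = 3.6e-07). WRKY40 (AT1G80840), a repressor of defence genes, fell from 80.1, 95.9 and 70.2 FPKM at 1 h to 7.38, 6.69 and 17.9 at 3 h (-2.95 ± 0.28, adjusted p = 2.1e-06). WRKY22 (AT4G01250), which acts below the MAP kinases, stood at 132, 173 and 115 FPKM at 1 h and 40.9, 43.5 and 61.0 at 3 h (-1.51 ± 0.19, adjusted p = 3.2e-05). WRKY33 (AT2G38470), the activator of camalexin synthesis, did not pass the test, with 24.6, 31.8 and 24.1 FPKM at 1 h and 6.27, 12.4 and 21.7 at 3 h (-1.09 ± 0.43, adjusted p = 0.12); replicate 3 at 3 h was near the 1 h values. Of 20 tested members of 26 among ERF, CBF and ZAT factors, 7 were lower and 1 higher, with a median of -0.44. These counts were 4 and 0 with only the 6 compared libraries in the fit. ERF11 (AT1G28370), a repressor of ethylene synthesis genes, fell from 22.0, 25.7 and 21.2 FPKM at 1 h to 4.54, 5.12 and 5.79 at 3 h (-1.96 ± 0.20, adjusted p = 4.6e-06). The zinc finger factor ZAT11 (AT2G37430) changed by -1.66 ± 0.30, adjusted p = 0.0012. Of 8 calmodulin-like genes, 1 was called, CML42 (AT4G20780), a calcium sensor, at 172, 204 and 206 FPKM at 1 h and 47.2, 36.3 and 69.9 at 3 h (-1.95 ± 0.24, adjusted p = 3.7e-05).

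Heat response genes, which encode chaperones and their regulators, had the lowest median of the lists with at least 6 tested members. Of 14 tested, 8 were lower, 2 were higher and the median change was -2.57. Before that, 12 of the 14 had been called higher at 1 h than at 0 h, where 10.2% of all genes were; both comparisons use the same 1 h libraries. HSP101 (AT1G74310), a disaggregase, fell from 201, 260.3 and 161 FPKM at 1 h to 8.56, 14.6 and 19.9 at 3 h (-3.81 ± 0.28, adjusted p = 1.1e-07). HSFA2 (AT2G26150), a heat shock factor that sustains chaperone transcription, fell from 47.4, 57.4 and 35.1 FPKM at 1 h to 1.22, 1.33 and 5.72 at 3 h (-3.84 ± 0.33, adjusted p = 5.4e-07). BAG6 (AT2G46240), a co-chaperone that binds calmodulin, had 79.4, 128 and 52.6 FPKM at 1 h and 1.05, 2.18 and 4.55 at 3 h (-4.64 ± 0.42, adjusted p = 1.2e-06). For each of these genes every 3 h library was below every 1 h library by several-fold. HSP70 (AT3G12580), a cytosolic chaperone, stayed above its 0 h mean of 19.3 FPKM, with 666, 941 and 561 FPKM at 1 h and 123, 122 and 149.5 at 3 h (-2.42 ± 0.24, adjusted p = 3.3e-06). MBF1C (AT3G24500), a coactivator in heat tolerance, changed by -3.71 ± 0.40, adjusted p = 7.1e-06, and HSP17.6A (AT5G12030), which encodes a small heat shock protein, by -3.44 ± 0.35, adjusted p = 4.4e-06. AT1G59860, which the annotation leaves without a symbol, had the largest fall of all called genes that met the naming rule, from 365, 395 and 273 FPKM at 1 h to 8.98, 7.92 and 23.4 at 3 h (-4.72 ± 0.28, adjusted p = 1.7e-08). The 2 members called higher were HSP17.4 (AT3G46230), another small heat shock protein gene, and AT1G53540. HSP17.4 stood at 14.3, 29.5 and 11.8 FPKM at 1 h and 88.4, 43.0 and 127 at 3 h (2.13 ± 0.50, adjusted p = 0.0099), and it lost its call without replicate 3 at 1 h (adjusted p = 0.053). AT1G53540 stood at 6.19, 20.7 and 5.60 FPKM at 1 h and 96.4, 64.7 and 131 at 3 h (3.23 ± 0.43, adjusted p = 7e-05). Replicate 2 was the highest 1 h library for both genes and the lowest 3 h library. Small heat shock protein genes have near-identical copies, so reads may have been shared among them.

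**Figure D2:**
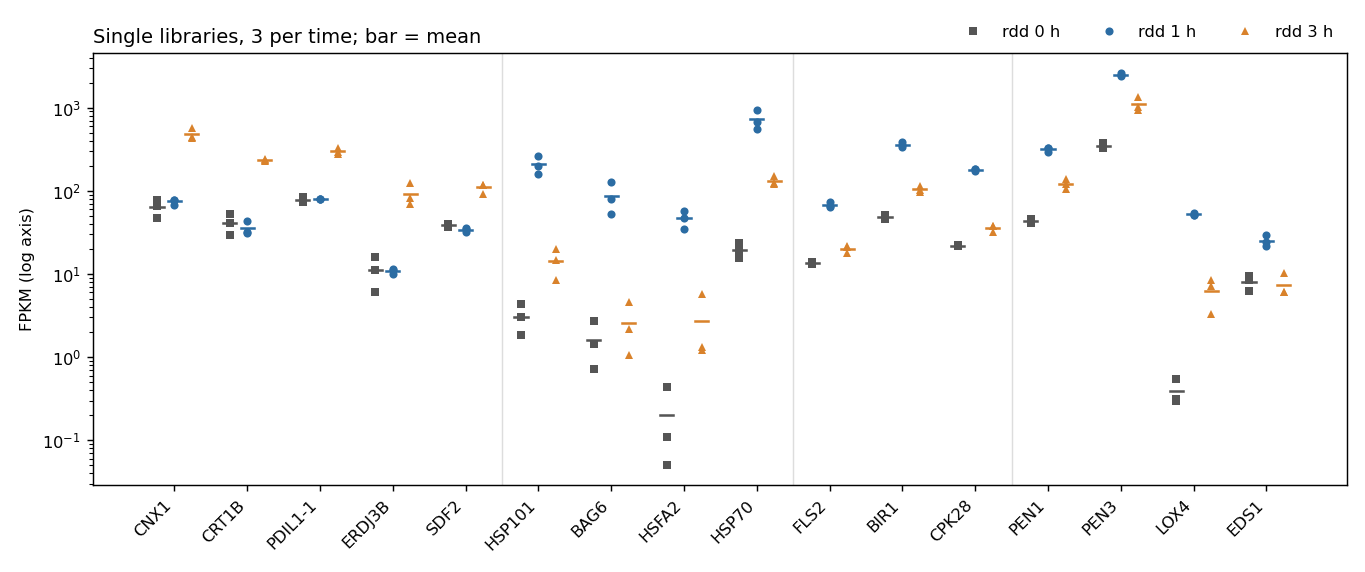
FPKM on a log axis of 16 genes in each rdd seedling library at 0 h (squares), 1 h (circles) and 3 h (triangles), with a bar at the mean of 3 libraries; thin vertical lines separate ER folding, heat response, receptor and signalling, and other defence genes. The 3 h libraries lie above the 1 h libraries for the 5 ER folding genes and below them for the other 11 genes. All 16 are examples picked from called genes and do not show whole lists. The ER folding list also had 3 members called lower, heat response had 2 called higher, and receptors and signalling had 13 not called.

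Most ER protein folding genes rose. Of its 16 members, 12 were higher and 3 were lower at 3 h, and the median change was 1.78, against 1.8 without replicate 2 at 3 h. The counts were 12 and 3 in each fit that left out 1 of the 6 libraries. They were 11 and 3 with only the 6 libraries in the fit, and 12 and 2 with median-ratio scaling. Calnexin, CNX1 (AT5G61790), which retains unfolded glycoproteins, stood at 78.6, 78.1 and 66.6 FPKM at 1 h and 443, 431 and 568 at 3 h (2.67 ± 0.17, adjusted p = 3.1e-08). The calreticulin CRT1B (AT1G09210), a soluble chaperone with the same task, stood at 31.0, 43.1 and 32.1 FPKM at 1 h and 228, 242 and 234 at 3 h (2.71 ± 0.17, adjusted p = 3.1e-08). Protein disulfide isomerase PDIL1-1 (AT1G21750), which forms disulfide bonds, stood at 79.2, 78.8 and 79.1 FPKM at 1 h and 275, 329 and 294 at 3 h (1.91 ± 0.10, adjusted p = 5.6e-09), the smallest adjusted p of the list. The 0 h means of these 3 genes were 63.5, 41.2 and 77.8 FPKM, near the 1 h libraries. The luminal HSP70 genes BIP1 (AT5G28540) and BIP2 (AT5G42020) changed by 2.01 ± 0.25, adjusted p = 3.5e-05 and 2.30 ± 0.24, adjusted p = 4.7e-06; they are near-identical, and reads may have been divided between them. SHD (AT4G24190), the HSP90 of the ER lumen, stood at 92.9, 83.7 and 72.7 FPKM at 1 h and 309, 374 and 402 at 3 h (2.11 ± 0.21, adjusted p = 3.8e-06). ERDJ3B (AT3G62600) and SDF2 (AT2G25110) form a chaperone complex with BIP that EFR needs. ERDJ3B went from 10.9 ± 0.74 FPKM (SD, n = 3) at 1 h to 91.1 ± 28.8 at 3 h (2.90 ± 0.29, adjusted p = 2.9e-06). SDF2 went from 34.1 ± 2.27 FPKM (SD, n = 3) at 1 h to 110.0 ± 15.5 at 3 h (1.65 ± 0.12, adjusted p = 7.5e-08). BIP3 (AT1G09080), the stress-inducible BIP gene, was low throughout, at 0.39, 0.13 and 0.22 FPKM at 1 h and 0.53, 3.58 and 2.68 at 3 h (1.25 ± 0.29, adjusted p = 0.0091). PDIL2-2 (AT1G04980), another isomerase outside the list, rose from 2.72, 3.24 and 2.70 FPKM at 1 h to 21.8, 22.0 and 31.9 at 3 h (2.74 ± 0.22, adjusted p = 3.2e-07).

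The 3 members that fell were BZIP60, BZIP28 and TIN1. BZIP60 (AT1G42990) and BZIP28 (AT3G10800) encode the transcription factors that switch on ER chaperone genes, and TIN1 (AT5G64510) encodes a protein induced by tunicamycin, an inhibitor of glycosylation. BZIP60 stood at 118, 129.9 and 133 FPKM at 1 h and 80.5, 69.7 and 88.7 at 3 h (-0.67 ± 0.13, adjusted p = 0.0027). BZIP28 changed by -0.64 ± 0.15, adjusted p = 0.011. TIN1 stood at 26.5, 32.3 and 25.8 FPKM at 1 h and 13.9, 14.4 and 17.4 at 3 h (-0.85 ± 0.19, adjusted p = 0.0069). All 3 were above their 0 h means of 44.9, 33.8 and 2.05 FPKM in every 3 h library. CRT3 (AT1G08450), the calreticulin that EFR needs, did not pass the test, at 52.6, 50.3 and 37.6 FPKM at 1 h and 49.7, 47.5 and 56.5 at 3 h (0.14 ± 0.19, adjusted p = 0.69). UTR1 (AT2G02810), which encodes a UDP-galactose and UDP-glucose transporter of the ER, was among the largest rises of all genes, from 3.06, 2.77 and 2.02 FPKM at 1 h to 35.9, 33.4 and 54.6 at 3 h (3.52 ± 0.20, adjusted p = 1.1e-08).

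Late MAMP-response and cell wall defence genes split (a MAMP is a microbial molecule that plants sense). Despite the list name, the highest rdd mean was at 1 h for 14 of 24 tested members and at 3 h for 9. Of 24 tested members of 27, 3 were higher and 7 lower, with a median of -0.06; the lower count was 4 without replicate 1 or 2 at 1 h or replicate 2 at 3 h. The receptor kinase gene FRK1 (AT2G19190), a common marker of flg22 responses, rose from 11.4, 9.33 and 9.02 FPKM at 1 h to 51.4, 55.3 and 93.2 at 3 h (2.59 ± 0.47, adjusted p = 0.0014). AT2G43620 rose from 129, 292 and 153 FPKM at 1 h to 1188, 1377 and 1424 at 3 h (2.88 ± 0.30, adjusted p = 5.2e-06) and had been at 17.8 FPKM at 0 h. The syntaxin PEN1 (AT3G11820), which delivers vesicles to sites of attack, stood at 328, 289 and 328 FPKM at 1 h and 121, 104 and 138 at 3 h (-1.38 ± 0.12, adjusted p = 7.4e-07). Its partner SNAP33 (AT5G61210) stood at 164, 184 and 163 FPKM at 1 h and 74.7, 50.0 and 101 at 3 h (-1.23 ± 0.20, adjusted p = 0.00051). The syntaxin SYP122 (AT3G52400) and the exocyst subunit EXO70B1 (AT5G58430) changed by -0.84 ± 0.17, adjusted p = 0.0038 and -0.79 ± 0.12, adjusted p = 0.00025. The salicylic acid marker PR1 (AT2G14610) was listed at 0 in all 3 libraries at 3 h and in 2 of 3 at 1 h. It was not tested, since fewer than 3 of the 18 seedling libraries reached 1 FPKM.

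One list held the genes for indole glucosinolates, sulfur compounds whose breakdown products act in defence of crucifers, together with those for the antimicrobial camalexin. Of 23 tested members of 24, 7 were lower and 1 was higher, and the median was -0.39. The myrosinase PEN2 (AT2G44490), which breaks these compounds down, fell from 519, 540.3 and 569 FPKM at 1 h to 153, 154 and 247 at 3 h (-1.59 ± 0.18, adjusted p = 9.8e-06). PEN3 (AT1G59870), the transporter that exports the products, fell from 2462, 2373 and 2605 FPKM at 1 h to 949.7, 1354 and 1015 at 3 h (-1.18 ± 0.16, adjusted p = 0.00011). GGP1 (AT4G30530), an enzyme of the core pathway, changed by -1.41 ± 0.15, adjusted p = 5.9e-06, and CYP81F2 (AT5G57220), which modifies the indole ring, by -1.51 ± 0.24, adjusted p = 0.00043. The glutathione transferase gene GSTF9 (AT2G30860) was the member that rose, from 606, 731 and 592 FPKM at 1 h to 1498, 1281 and 1637 at 3 h (1.19 ± 0.14, adjusted p = 1.7e-05). Tryptophan synthesis, which supplies the precursor, had 2 of 8 members higher and none lower, with a median of 0.31. TSA1 (AT3G54640), the alpha subunit of tryptophan synthase, stood at 98.3, 144 and 102 FPKM at 1 h and 178, 188 and 305 at 3 h (0.93 ± 0.22, adjusted p = 0.0086; 0.069 with only the 6 libraries in the fit). The other, AT2G04400, stood at 62.9, 61.7 and 55.3 FPKM at 1 h and 80.0, 100.1 and 138 at 3 h (0.78 ± 0.20, adjusted p = 0.017) and lost its call without replicate 3 at 1 h or at 3 h (adjusted p = 0.069 and 0.066). PAD3 (AT3G26830), the last step of camalexin synthesis, did not pass the test, at 13.3, 4.34 and 3.90 FPKM at 1 h and 2.29, 3.40 and 4.01 at 3 h (-0.79 ± 0.35, adjusted p = 0.17), with replicate 1 at 1 h above the rest.

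In the salicylic acid list 6 of 18 tested members of 20 were lower and 1 was higher, with a median of -0.35. EDS1 (AT3G48090) and PAD4 (AT3G52430) are partners in a signalling node of immunity. EDS1 stood at 24.3, 29.4 and 21.9 FPKM at 1 h and 6.02, 6.06 and 10.3 at 3 h (-1.66 ± 0.24, adjusted p = 0.00013). PAD4 stood at 31.7, 25.9 and 31.9 FPKM at 1 h and 12.7, 12.0 and 16.2 at 3 h (-1.08 ± 0.15, adjusted p = 0.0001). SARD1 (AT1G73805), a factor that activates salicylic acid synthesis, went from 3.91 ± 0.58 FPKM (SD, n = 3) at 1 h to 0.77 ± 0.71 at 3 h (-1.55 ± 0.26, adjusted p = 0.0006) and was listed at 0 in replicate 2 at 3 h. EDS5 (AT4G39030), which exports the precursor from the chloroplast, changed by -1.46 ± 0.28, adjusted p = 0.0019. UGT74F2 (AT2G43820), which adds glucose to salicylic acid, was the member that rose, from 59.5, 53.3 and 49.6 FPKM at 1 h to 114, 118 and 109.7 at 3 h (1.06 ± 0.12, adjusted p = 1.1e-05). The synthase ICS1 (AT1G74710) did not pass the test, at 4.95, 2.92 and 6.48 FPKM at 1 h and 6.70, 3.36 and 11.8 at 3 h (0.43 ± 0.34, adjusted p = 0.45).

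In jasmonate synthesis and turnover 4 of 15 members were lower, none was higher and the median was -0.32; the same counts came from each fit without 1 library. The lipoxygenases LOX4 (AT1G72520) and LOX3 (AT1G17420) start the pathway. LOX4 fell from 50.9, 54.0 and 51.6 FPKM at 1 h to 3.30, 8.44 and 7.15 at 3 h (-2.94 ± 0.24, adjusted p = 3.7e-07). LOX3 fell from 16.9, 16.7 and 15.5 FPKM at 1 h to 1.30, 0.79 and 3.07 at 3 h (-2.76 ± 0.32, adjusted p = 1.3e-05). AOC3 (AT3G25780), an allene oxide cyclase, and OPCL1 (AT1G20510), a ligase of the peroxisomal steps, changed by -2.27 ± 0.23, adjusted p = 4.1e-06 and -1.42 ± 0.17, adjusted p = 3.2e-05. Among 13 JAZ repressors and outputs 4 were lower and 2 higher, but 0 to 5 were lower when 1 library was left out, with 0 in the fits lacking replicate 2 at 1 h and replicate 1 at 3 h, and 5 in that lacking replicate 3 at 3 h. JAZ9 (AT1G70700), a repressor of jasmonate responses, kept its call in all of these fits, at 105, 120.5 and 144 FPKM at 1 h and 273, 239.6 and 289 at 3 h (1.12 ± 0.19, adjusted p = 0.00077). In ethylene synthesis and signalling 1 of 12 members was higher and 1 lower. ACS8 (AT4G37770), an ACC synthase, rose from 1.66, 2.07 and 1.75 FPKM at 1 h to 19.2, 12.4 and 17.0 at 3 h (2.59 ± 0.21, adjusted p = 3.5e-07). ACS7 (AT4G26200), another ACC synthase, stood at 29.9, 40.6 and 31.8 FPKM at 1 h and 15.7, 8.35 and 24.6 at 3 h (-1.13 ± 0.35, adjusted p = 0.046). It lost its call in 5 of the 6 fits without 1 library, each except that without replicate 3 at 3 h, with an adjusted p of 0.081 to 0.2.

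Phenylpropanoid genes went both ways, with 4 of 20 tested members of 22 higher and 3 lower (1 lower without replicate 2 at 1 h, 5 without replicate 3 at 3 h). 4CL1 (AT1G51680), a ligase early in the pathway, changed by -1.14 ± 0.18, adjusted p = 0.00045. Auxin, expansin and wall growth genes had 9 of 31 tested members of 34 higher and 3 lower, with a median of 0.28; 5 were higher without replicate 2 or 3 at 1 h or replicate 1 at 3 h. EXL4 (AT5G09440), of a family linked to growth, rose from 107, 107 and 101 FPKM at 1 h to 281, 284 and 291 at 3 h (1.44 ± 0.11, adjusted p = 1.6e-07). XTH25 (AT5G57550), a wall-remodelling enzyme, rose from 6.06, 4.04 and 3.67 FPKM at 1 h to 24.9, 11.7 and 18.3 at 3 h (1.75 ± 0.25, adjusted p = 0.00013). XTH18 (AT4G30280) of the same family fell from 86.2, 118 and 127 FPKM at 1 h to 20.5, 17.6 and 31.3 at 3 h (-2.23 ± 0.28, adjusted p = 4.7e-05). GH3.3 (AT2G23170), which conjugates auxin to amino acids, was among the largest rises, from 3.08, 2.73 and 4.05 FPKM at 1 h to 28.4, 41.8 and 31.2 at 3 h (3.01 ± 0.19, adjusted p = 3.1e-08). OPT1 (AT5G55930), an oligopeptide transporter, and AZI1 (AT4G12470), a lipid transfer protein of systemic resistance, changed by 2.75 ± 0.19, adjusted p = 6.4e-08 and 2.67 ± 0.36, adjusted p = 9e-05. The other large rises were in genes without an annotated symbol: AT3G60540 (3.84 ± 0.50, adjusted p = 5.3e-05), AT5G61890 (3.66 ± 0.36, adjusted p = 2.8e-06), AT3G21351 (3.42 ± 0.34, adjusted p = 2.8e-06) and AT5G44575 (3.29 ± 0.46, adjusted p = 0.00013). Among the other large falls were GAD4 (AT2G02010), a glutamate decarboxylase (-3.28 ± 0.26, adjusted p = 3.2e-07), and the zinc finger gene PMZ (AT3G28210; -3.53 ± 0.32, adjusted p = 9.8e-07). AT3G54150, AT5G37670, AT1G56060 and AT2G24600, without a symbol, changed by -3.61 ± 0.37, adjusted p = 4.5e-06, -3.62 ± 0.45, adjusted p = 3.1e-05, -3.31 ± 0.62, adjusted p = 0.0017 and -3.21 ± 0.26, adjusted p = 3.3e-07. AT5G37670, AT1G56060 and PMZ were listed at 0 in replicate 2 at 3 h. Without that library they changed by -3.05, -2.46 and -3.1.

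**Figure D3:**
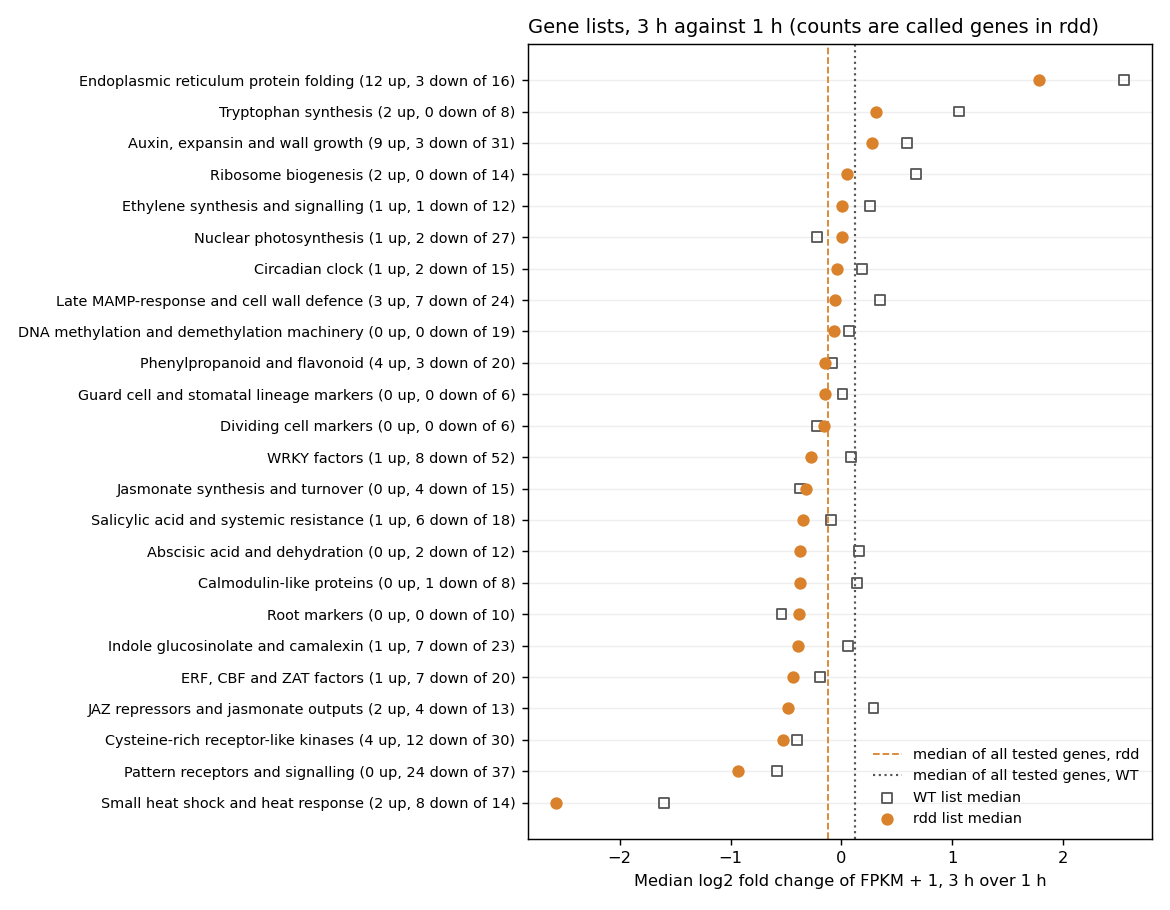
Median log2 fold change of FPKM + 1, 3 h over 1 h, for each gene list with at least 6 tested members, in rdd (filled) and WT (open squares), with the medians of all tested genes as vertical lines (-0.121 in rdd, 0.127 in WT). The 30 genes under cysteine-rich kinases include the 2 CDPK-related kinases. ER protein folding is highest (1.78 in rdd, 2.55 in WT) and heat response lowest (-2.57 in rdd, -1.6 in WT).

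Nuclear photosynthesis had 1 of 27 members higher and 2 lower (0 lower without replicate 2 at either time), with a median of 0.01. At 1 h 11 of these 27 had been lower than at 0 h, as were 6.58% of all genes. LHCB4.2 (AT3G08940), an antenna protein gene of photosystem II, was the one higher, from 519.5, 451 and 445 FPKM at 1 h to 893, 829.7 and 761 at 3 h (0.81 ± 0.13, adjusted p = 0.00037). Ribosome biogenesis had 2 of 14 members higher (0 without replicate 2 at 1 h). In abscisic acid and dehydration 2 of 12 tested members were lower, and 0 without replicate 1 or 3 at 1 h or replicate 2 at 3 h. The circadian clock had 1 of 15 tested members higher and 2 lower; 0 were higher without replicate 2 or 3 at 1 h or without replicate 1 or 3 at 3 h, and 1 was lower without replicate 2 at 3 h. Root, guard cell and dividing cell markers held no called gene among 10, 6 and 6 tested, although 2 root markers were called lower without replicate 3 at 1 h. The root list still had a median of -0.38, and its summed level was 1183 to 1875 FPKM at 1 h and 1021 to 1110 FPKM at 3 h, so that the groups did not overlap; the part of root material in the other results was not tested.

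The genes for DNA methylation and demethylation gave no call among 19 tested of 20, in rdd or in WT; without replicate 1 at 3 h, 1 was lower in rdd. ROS1 (AT2G36490), mutated in rdd, stood at 5.29, 5.93 and 3.88 FPKM at 1 h and 4.60, 5.88 and 4.99 at 3 h, so its transcript level does not check the genotype (0.04 ± 0.26, adjusted p = 0.94). DML2 (AT3G10010) was at most 0.73 FPKM in the 6 libraries, and DML3 (AT4G34060) was listed at 0 in 5 of them and at 0.02 FPKM in replicate 3 at 3 h. DME (AT5G04560), a demethylase gene not mutated in rdd, stood at 6.56, 8.61 and 5.45 FPKM at 1 h and 3.30, 5.39 and 5.54 at 3 h (-0.46 ± 0.29, adjusted p = 0.34). Among genes reported as targets of demethylation, AT4G11170 stood at 0.66, 0.40 and 0.71 FPKM at 1 h and 0, 0.56 and 0.54 at 3 h (-0.24 ± 0.19, adjusted p = 0.47). RLP43 (AT3G28890), a receptor-like protein gene, was at 0.21, 0.12 and 0.16 FPKM at 1 h and listed at 0 in all 3 h libraries.

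The genotype difference was tested as the rdd change minus the WT change, 3 h over 1 h; the WT libraries are not part of the rdd comparison. In WT 2255 genes (11.9%) were higher and 1279 (6.77%) lower at 3 h, and the median of all genes was 0.127. Of the 785 genes higher in rdd, 559 were higher in WT too (71.2% of the rdd calls and 24.8% of the WT calls), and 759 had the same sign. Of the 1371 lower in rdd, 733 were lower in WT too (53.5% and 57.3%), and 1275 had the same sign. The difference itself passed the test for 1 gene (0.00529% of genes) in the direction of a higher change in rdd and for none in the other, while 3534 genes (18.7%) had an unadjusted p under 0.05. The median difference over all genes was -0.247, and the SE of a difference had a median of 0.298. In rdd alone the median change was -0.121, but -0.015 without replicate 2 at 3 h and -0.043 with median-ratio scaling. How much of the difference between genotypes that library carries was not tested. Like the genes as a whole, most lists had lower fitted changes in rdd than in WT in most members. Examples were 14 of 16 ER folding genes (median difference -0.62), 8 of 8 tryptophan synthesis genes (-0.85), 12 of 14 ribosome biogenesis genes (-0.64) and 46 of 52 WRKY factors (-0.51). None of these genes passed the test (lowest adjusted p 0.21). The same held for 20 of 23 indole glucosinolate and camalexin genes (-0.36) and 24 of 31 auxin, expansin and wall growth genes (-0.39). It did not hold for nuclear photosynthesis (8 of 27, 0.15), root markers (3 of 10, 0.04) and dividing cell markers (2 of 6, 0.19). The share over all genes was not counted, so these counts cannot be set apart from the general shift. The ER folding gene ERDJ3B changed by 4.27 ± 0.29 in WT. In heat response the list median was -1.6 in WT and 8 of 14 members were lower there as well.

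CRK39 (AT4G04540) was the gene that passed. In rdd it stood at 1.36, 2.18 and 1.65 FPKM at 1 h and 0.07, 0 and 0.04 at 3 h, and in WT at 29.2, 24.1 and 21.5 FPKM at 1 h and 1.46, 0.74 and 0.99 at 3 h. The levels at 3 h were below those at 1 h in both genotypes. The fitted change was -1.39 ± 0.18, adjusted p = 4.4e-05 in rdd and -3.65 in WT, a difference of 2.27 ± 0.25 (adjusted p = 0.0014). The ratio of the 1 h mean to the 3 h mean was 47.2 in rdd and 23.4 in WT, which is the opposite order to the fitted changes on the scale with 1 FPKM added. The rdd ratio divides by 3 h values of at most 0.07 FPKM, with a 0 in replicate 2, and is imprecise. With log2(FPKM + 0.1) the difference was 0.71 (adjusted p = 0.49), and with a minimum of 5 FPKM the adjusted p was 0.19; with the other 19 alternatives it was called, at adjusted p-values of 3.6e-07 to 0.037. In the opposite direction the genes with the smallest p did not pass. AT2G32150 stood at 64.4, 59.1 and 59.2 FPKM at 1 h and 98.2, 73.4 and 124 at 3 h in rdd and at 48.6, 45.4 and 39.4 FPKM at 1 h and 166, 150.4 and 152 at 3 h in WT (difference -1.14 ± 0.22, adjusted p = 0.21). AT3G20450 and AT5G01225 also had an adjusted p of 0.21; AT5G01225 was listed at 0 in all rdd libraries at 3 h and in all WT libraries at 1 h.

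**Figure D4:**
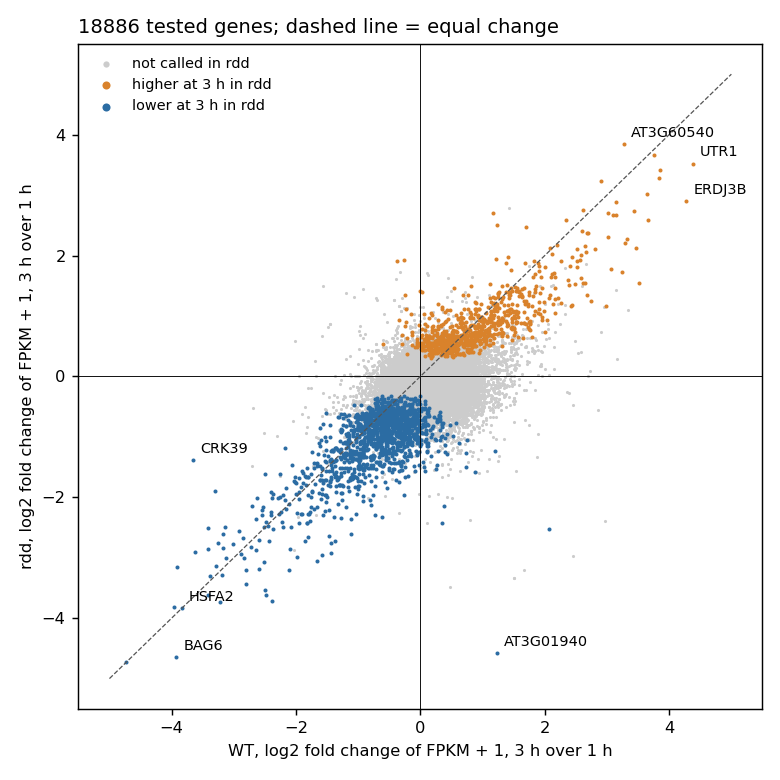
Log2 fold change of FPKM + 1, 3 h over 1 h, in rdd (vertical) against WT (horizontal) for 18886 tested genes, coloured by the call in rdd. Most called genes lie in the quadrants of equal sign (759 of 785 higher and 1275 of 1371 lower); CRK39 is the gene whose difference between genotypes passed the test, and AT3G01940 is listed at 0 in all rdd libraries at 3 h.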

How the data were processed

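RNA libraries of 6 rdd seedling samples, 3 at 1 h and 3 at 3 h of 100 nM flg22, were compared. The tools HISAT2, featureCounts and DESeq2 and the build TAIR10 stand without versions in the submitters' processing notes. Which of them made the table is not given in the sources used here. The deposited values name no unit; they carry decimals, total 957184 to 1112832 per seedling library, and are taken here for FPKM computed by the authors, an inference from the values. The number of reads per library is unknown, so no counting interval or limit for values of 0 is given.

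From these values log2(FPKM + 1) was computed. Genes reaching 1 FPKM in 3 or more of the 18 seedling libraries were kept. The fit used R 4.3.3 and its limma package, version 3.58.1, with 1 mean per genotype and time and eBayes with trend and robust variances. P-values were two-sided and adjusted by Benjamini-Hochberg over all 18886 genes. The added 1 FPKM understates changes of low genes. The series text gives 3 independent repeats without saying what was repeated. P-values therefore measure the spread between samples of the same group, pooled over all 18 seedling libraries. The fit was also run on simulated data in which each gene had the same spread in every library. That run did not cover a library that stands apart from the others.

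The comparison, the 25 gene lists (504 entries for 503 genes, 4 further ones dropped because the annotation pairs the identifier with another symbol) and the tests were chosen with earlier results of these data known, so counts in lists are descriptions, and no list was tested as a set. A count without the CDPK-related kinases in the CRK list was added after seeing the data. Gene names came from the RefSeq annotation of TAIR10.1, which matched 32830 of 33597 identifiers, and no coordinates of it are printed. By rule, named genes were drawn from the 14 largest called changes per direction (a group mean of 5 FPKM or more, libraries of the times apart, nuclear genes), up to 4 called members per list with the smallest adjusted p, the genes leading the interaction, ROS1, DML2, DML3, DME, AT4G11170 and RLP43. Further list members were chosen as examples after their values were seen.

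Alternatives were another pseudocount, another filter, none, median-ratio scaling, weights per library, only the compared groups, a replicate block, organelle genes left out, and each library left out. Leaving out organelle genes together with replicate 2 at 3 h was added after seeing the data. Promoter sequence was not used here, and the 32 bisulfite samples were not analysed here.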

Additional observations from a re-analysis of the deposited data

Results flagged for a closer look

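CRK39 (AT4G04540), a cysteine-rich receptor-like kinase gene, stood out because its 3 h against 1 h change differed between the genotypes in the test of the difference itself, by 2.27 on the log2(FPKM + 1) scale (rdd minus WT, adjusted p = 0.0014, limma). The gene fell in both genotypes, from 1.36, 2.18 and 1.65 FPKM at 1 h in rdd and from 29.2, 24.1 and 21.5 FPKM in WT, and it was lower at 3 h in 3 of 3 libraries of each. The ratio of the 1 h mean to the 3 h mean ran in the opposite order, 47.2 in rdd and 23.4 in WT. The rdd ratio is imprecise, since it divides by 3 h values near 0 FPKM. With log2(FPKM + 0.1) the difference was 0.71 (adjusted p = 0.49, limma). It was called in 20 of 22 fits, of which all but the one with log2(FPKM + 5) add 1 FPKM, and was at most 2.43.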

How the results depend on the processing

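The number of genes higher at 3 h than at 1 h was 785; it was 373 with only the groups compared in the fit and 1323 with a weight per library, and 521 to 850 when 1 library was left out. The number lower was 1371; it was 745 with only the groups compared and 824 to 2003 when 1 library was left out. Of these calls, 385 of 785 and 710 of 1371 remained in all 6 fits without 1 library, and 607 and 902 remained without replicate 2 at 3 h. The interaction gave 1 gene with a higher change in rdd; it gave 0 with a minimum of 5 FPKM, 0 with log2(FPKM + 0.1), 10 with a weight per library, and 1 to 2 when 1 library was left out. In the other direction it gave 0 genes; it gave 1 with log2(FPKM + 5), 38 with a weight per library and 0 to 12 when 1 library was left out. The weight of replicate 2 at 3 h was 0.168, the lowest of the 18. The causes of these shifts were not tested. Deviations of libraries with the same replicate number correlated at -0.107 to 0.047 between 1 h and 3 h, and at -0.272 to 0.33 over all pairs of seedling groups. With 3 libraries per group these values cannot show whether the samples were paired. With the replicate block 741 genes were higher and 1258 lower, and the interaction gave 1 and 0. ROS1 (0.04), which passed in no fit, was at -0.1 with organelle genes and replicate 2 at 3 h left out, at -0.03 with weights and at -0.11 to 0.15 when 1 library was left out. DML2 (-0.03), likewise never called, ranged from -0.14 to 0.13 when 1 library was left out. Of 93 called named genes, 74 kept the call in all alternatives; 14 lost it without at least 1 library and 8 without replicate 2 at 3 h. Since reads per gene are unknown, values near 0 FPKM cannot be given a limit.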

Other observations

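Families taken from annotated symbols, were chosen after the list results had been seen. Among calcium-dependent protein kinases (CPK), 10 of 18 tested members of 29 were lower at 3 h and none was higher. The family median was -0.58 in rdd, against -0.121 over all genes, and -0.2 in WT, against 0.127 over all genes. CPK1 (AT5G04870) fell from a mean of 119 to 36.7 FPKM (log2 fold change -1.67 ± 0.17, adjusted p = 3.8e-06, limma), and CPK4 (AT4G09570) from 46.3 to 16.3 FPKM (-1.47 ± 0.18, adjusted p = 3.3e-05). In the MAP kinase cascade 7 of 26 tested members of 29 were lower and 1 higher. The lower count was 6 in each fit without 1 library. MEKK3 (AT4G08470), the higher one, went from 12.7 to 34.5 FPKM (1.37 ± 0.19, adjusted p = 0.00011, limma). The other families are set beside 4.16% higher and 7.26% lower over all genes, and most of their counts moved with single libraries. PUB ubiquitin ligases had 8 of 19 tested members lower and none higher, with 3 lower without replicate 1 or 3 at 1 h and 4 without replicate 2 at 3 h. Receptor-like proteins (RLP) had 6 of 30 lower, with 2 lower without replicate 1 and 3 without replicate 2 or 3 at 1 h, and 4 without replicate 3 at 3 h. Protein disulfide isomerase genes (PDIL) had 4 of 12 higher and none lower, with the same counts in each fit without 1 library. NAC factors had 6 of 47 lower and 1 higher, but 10 lower without replicate 3 at 3 h and 2 without any other of the 6 libraries. MYB factors had 6 of 55 lower and 1 higher, with 2 lower without replicate 2 at 1 h, 3 and 14 without replicates 2 and 3 at 3 h, and 4 without replicate 1 at 3 h. Glutathione transferases of the tau class had 3 of 24 lower and 1 higher, and 1 to 4 were lower when 1 library was left out. SAUR genes had no call among 15, and 2 were higher without replicate 2 at 3 h.

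Of 7 tested HSP70 family genes, the 3 called higher were BIP1, BIP2 and BIP3, whose proteins are in the ER. HSP70 (AT3G12580), HSP70T-2 (AT2G32120) and the mitochondrial MTHSC70-2 (AT5G09590) were the 3 called lower, MTHSC70-2 from a mean of 56.3 to 22.3 FPKM (-1.29 ± 0.24, adjusted p = 0.0016, limma).

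Replicate 1 at 1 h had several defence transcripts that the other libraries at 1 h nearly lacked; these genes were chosen after their values were seen. PR1 was at 17.1 FPKM there and listed at 0 in the other 8 rdd seedling libraries. PR2 was at 12.4 FPKM against 0.06 and 0.34 in the other 1 h libraries, and ELI3-2 at 15.3 against 0.16 and 0.35.

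A pair of near-identical genes share the symbol TPS-CIN, a terpene synthase. AT3G25830 was listed at 0 in all 1 h libraries and at 5.87, 9.15 and 3.00 FPKM at 3 h. AT3G25820 was at 10.4, 19.1 and 8.18 FPKM at 1 h and 0.17, 0 and 6.89 at 3 h, and the sum of both was 10.4, 19.1 and 8.18 at 1 h and 6.04, 9.15 and 9.89 at 3 h, so the change of either gene alone is uncertain. AT3G01940, among the largest falls, was at 28.1, 13.1 and 32.3 FPKM at 1 h and listed at 0 in all 3 h libraries of rdd, while in WT at 1 h and 3 h it was listed at 0 in 5 of 6 libraries and at 12.0 FPKM in replicate 2 at 3 h.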
